A study of Mus musculus with 8 samples.

Results

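The comparison described here sets 2 microarrays of macrophage-like cells that had received the bacterium Lactobacillus acidophilus, strain MTCC-10307, 4 h or 6 h earlier against 2 arrays of cells given Bacillus clausii, strain MTCC-8326, for as long, 4 of the 8 arrays of the series. The cells were RAW 264.7, a mouse line of BALB/c origin that behaves much like a macrophage in culture. Each bacterium was given at 100 bacteria per cell, and the untreated cells of the same hour were the control on every array. Treated RNA carried the red dye and untreated RNA the green dye throughout, with no array of exchanged dyes. Equal amounts of RNA of 3 cultures were pooled before labelling, so a bacterium and hour has 1 array and the spread between cultures was not measured. All L. acidophilus arrays lie on one slide and all B. clausii arrays on another, so slide and bacterium cannot be told apart. A p-value here measures only how closely the hours agree.

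The value of a gene on an array is the log2 ratio of treated over untreated signal, and the late difference is the L. acidophilus ratio minus the B. clausii ratio, averaged over the pairs at 4 h and 6 h. A positive value means a higher ratio with L. acidophilus. Of the 41174 probes of the array 21594 passed a filter on dim signal, and they stand for 14806 genes, each represented by its brightest probe. Limma fitted the difference at 4 and 6 h (late) and at 1 and 2 h (early) to all 8 arrays with the hour as a block, and p-values were adjusted over all 14806 genes by Benjamini-Hochberg.

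Macrophages sense bacteria through Toll-like and other receptors, which switch on NF-kB and AP-1 and with them chemokine and cytokine genes, often within the first hour. Feedback inhibitors then shut many of these genes off, and cells that stay activated turn to glycolysis and remodel their lysosomes and antigen presentation. L. acidophilus is a non-sporing lactic acid bacterium and B. clausii an alkali-tolerant spore former, and both are sold as probiotics.

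The macrophage label was checked first. Of 14 macrophage markers 12 were tested, and all 12, among them Ptprc, Csf1r, Cd68, Adgre1 and Spi1, were well above background on all 4 late arrays. No listed marker of fibroblasts, epithelium, endothelium or neutrophils was above background on all 4, and of the T cell and dendritic cell markers only Lck and Zbtb46 were. On the late arrays the share of probes above background lay between 42.1% and 47.1% for untreated RNA and between 40.8% and 51.1% for treated RNA. Replicate spots of a probe had a median SD of 0.13 on both 6 h arrays, against 0.11 (L. acidophilus) and 0.097 (B. clausii) at 4 h. The number of arrays limits the precision.

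Few genes separated the bacteria at the late hours beyond the spread of the fit. Genes are not replicates of one another, and across them the ratios with L. acidophilus and B. clausii correlated at r = 0.709 at 4 h and 0.641 at 6 h, on arrays that share the dye orientation and may share untreated RNA. Only 3 genes, 0.0203% of those tested, passed an adjusted p of 0.05, and all 3 were higher with L. acidophilus: Esf1, which encodes a nucleolar protein of ribosome assembly, Rtf1, which encodes a subunit of the PAF1 transcription elongation complex, and Kif5b, which encodes the heavy chain of a kinesin motor. No gene passed in the other direction. At an unadjusted p under 0.05 the limma fit held 1142 genes (7.71%) higher with L. acidophilus and 1164 (7.86%) higher with B. clausii. At an adjusted p of 0.1 there were 28 (0.189%) and 6 (0.0405%). The difference had 1 sign at both hours in 62.8% of the genes, and the differences at 4 h and 6 h correlated at r = 0.335 across genes. With median centring in place of the intensity-dependent loess normalization, 206 genes passed as higher with L. acidophilus and 35 as higher with B. clausii.

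Esf1 stood at -0.42 (4 h) and -0.38 (6 h) with L. acidophilus, against -1.38 and -1.35 with B. clausii. The B. clausii arrays were the low ones at both hours and the groups did not overlap, which the choice of called genes favours. The late difference was 0.97 ± 0.09 (SE of the limma fit, 2 arrays a side), or 1.95-fold, with an adjusted p of 0.0444 in limma. Rtf1 gave -0.32 and -0.28 with L. acidophilus against -1.16 and -1.15 with B. clausii, a difference of 0.86 ± 0.09 with the same adjusted p of 0.0444. Kif5b gave -0.15 and -0.27 against -0.95 and -1.09, a difference of 0.81 ± 0.08, again at 0.0444. At these probes, 1 for each gene, the ratios of all 3 lay below the untreated level with both bacteria and lower with B. clausii. With the replicate block removed Esf1 alone passed (adjusted p of 0.0486), and the scanner software's processed signals, the mean over a gene's probes or leaving out a 6 h array left none of the 3 past the threshold. Leaving out an array of the early hours gave 11 genes in all, leaving out a 4 h array 104 and leaving out a 6 h array 4, since the lost array takes its partner of the same hour out of the difference.

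The other 12 leading genes of this direction gave late differences from 0.62 (Srek1ip1) to 0.94 (Sltm) and adjusted p of 0.0584 to 0.0789, so they did not pass. Larp7, which binds and protects the 7SK RNA that restrains the elongation factor P-TEFb, stood at -0.29 and -0.36 with L. acidophilus, against -1.14 and -1.10 with B. clausii. Rnf20, a ubiquitin ligase that marks histone H2B during elongation, stood at -0.33 and -0.49 against -1.01 and -1.21. Sltm, a scaffold attachment factor relative, had the lowest B. clausii ratios of the set, -1.51 and -1.39, against -0.42 and -0.60. Tpr, a protein of the nuclear pore basket, stood at -0.32 and -0.52 against -1.11 and -1.20. Dicer1, the enzyme that cuts microRNA precursors, stood at -0.22 and -0.21 against -0.84 and -0.89. In all 12 the 2 B. clausii arrays lay below the 2 L. acidophilus arrays, which the rule by which they were named favours. Smap1, Lims1, Tshz1, Riok1, Glg1, N6amt1 and Srek1ip1 complete the set. Across all 15 the mean late ratio ran from -0.57 to 0.06 with L. acidophilus and from -1.45 to -0.57 with B. clausii.

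**Figure D1:**
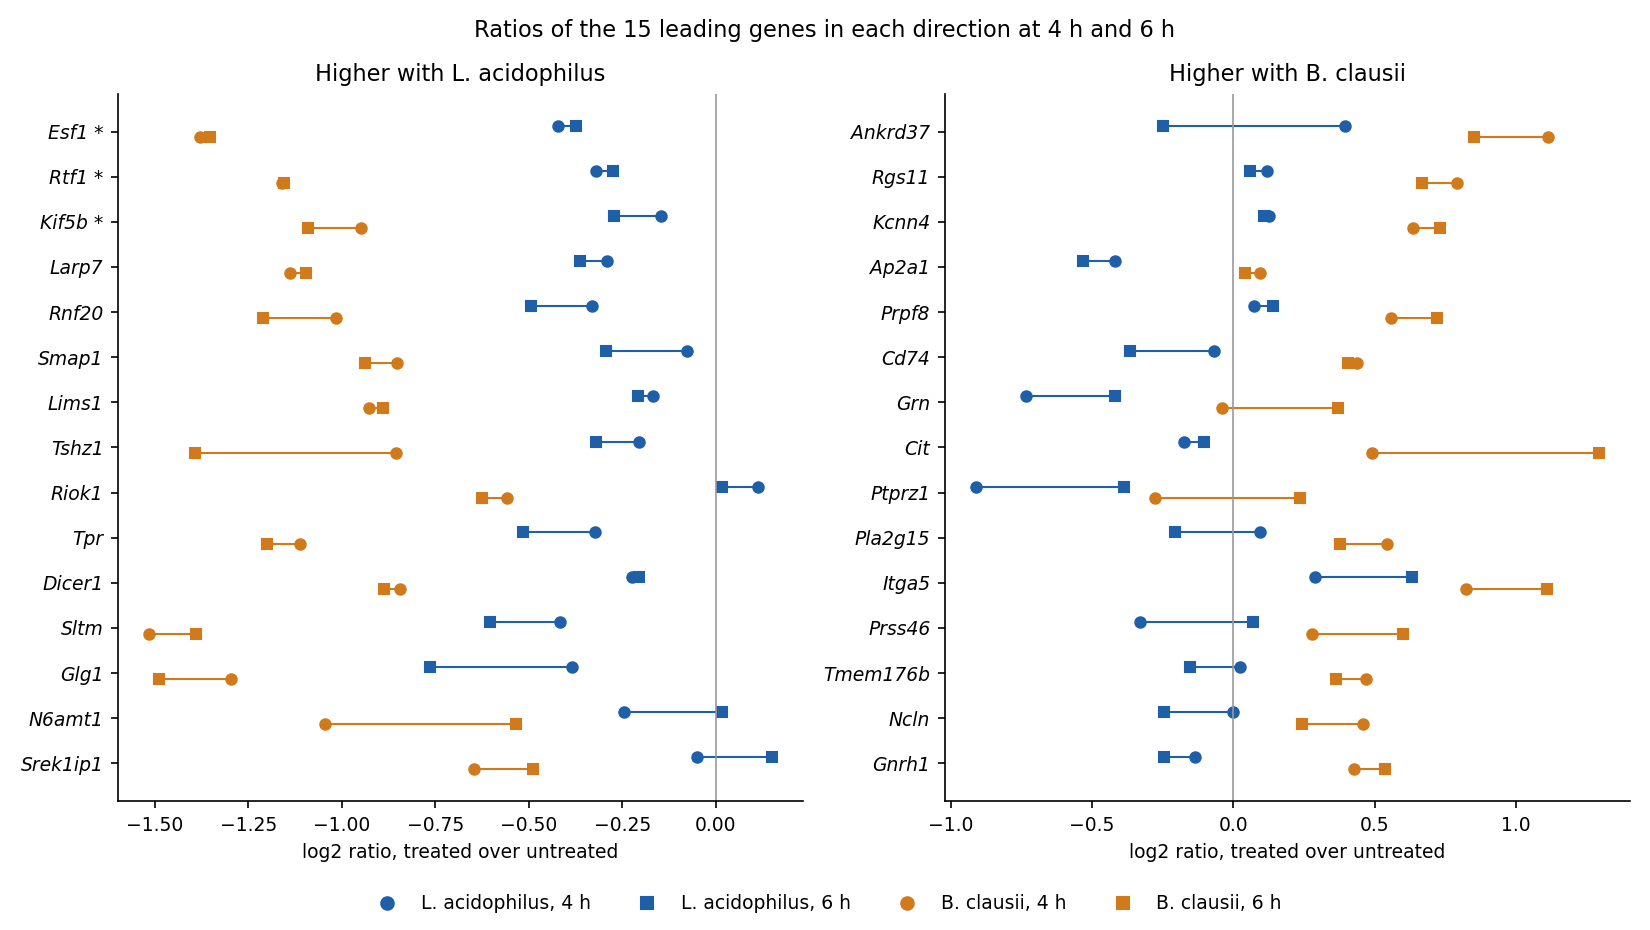
Log2 ratios of treated over untreated cells (horizontal axes) of the 15 leading genes in each direction, 1 point per array, with circles for 4 h and squares for 6 h. A star marks an adjusted p under 0.05 in limma, reached by Esf1, Rtf1 and Kif5b. In the left panel the B. clausii points run from -1.51 to -0.49 and lie left of the L. acidophilus points of the same gene.

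The genes were chosen on the late difference and its p, whose standard error comes from all 8 arrays, and the early arrays lie on the same slides. All 15 had an early difference of the same sign, from 0.25 (Smap1) to 0.63 (Sltm), which is given as a description. Across all genes the early and late differences correlated at r = 0.466. In the early comparison 9.88% of all genes had an unadjusted p under 0.05. No gene passed an adjusted p of 0.05 in the early comparison. With B. clausii Esf1 stood at -0.79, -0.98, -1.38 and -1.35 over 1, 2, 4 and 6 h, while with L. acidophilus it stayed between -0.42 and -0.33. Rtf1 moved from -0.68 at 1 h to -1.16 at 4 h with B. clausii and lay between -0.35 and -0.24 with L. acidophilus. These gaps were thus open at the first hour and wider at 4 h.

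The late difference of these genes differed along the transcript. The probes that represent Esf1, Rtf1, Larp7 and Rnf20 are printed below as the array files give them, 60 bases each, because the late difference was large at these stretches and small at probes further downstream on the same transcript. Their positions on mm9 are chr2:139980568-139980627 (minus strand) for Esf1, chr2:119517897-119517956 (plus) for Rtf1, chr3:127249577-127249636 (minus) for Larp7 and chr4:49662904-49662963 (plus) for Rnf20.
Esf1: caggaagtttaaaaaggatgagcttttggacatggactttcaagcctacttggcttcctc
Rtf1: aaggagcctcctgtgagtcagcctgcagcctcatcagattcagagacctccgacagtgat
Larp7: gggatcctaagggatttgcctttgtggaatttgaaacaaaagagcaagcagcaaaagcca
Rnf20: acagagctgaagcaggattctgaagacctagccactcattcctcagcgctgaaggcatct

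The Rtf1 probe printed above starts 258 bases into the transcript and gave 0.86, a second at 515 gave 0.56, and the probes at 1977 and 3857 gave -0.03 and 0.15. For Esf1 the probe printed above, at base 1673, gave 0.97, one at 1381 gave 0.80, and one at 2258 gave 0.14. At that last probe the B. clausii ratios were -0.19 and 0.05, close to the L. acidophilus ratios of -0.05 and 0.20. Larp7 gave 0.79 at base 637 and 0.08 at 1653, and Rnf20 0.70 at 1927 and 0.10 at 2901. Dicer1 gave 0.65 at 1373 and -0.06 at 5547, Smap1 0.71 at 438 and -0.06 at 1530, and Kif5b 0.81 at 1225 and 0.28 at 2945. Of the 11 leading genes with a probe pair at least 300 bases apart on 1 transcript, 10 had the larger difference at the upstream probe, with a median of 0.71 there and 0.10 at the most downstream probe. Riok1 was the exception, with 0.34 at base 713 and 0.66 at 2009, and in that gene the downstream probe was the brightest one. The genes were chosen on their brightest probe, so the size of the difference at that probe is not independent of the choice.

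Over all 3144 transcripts with such a pair the upstream probe had the higher late difference in 55.2%, and the median of upstream minus downstream was 0.03. That median went from 0.00 for gaps from 300 to under 600 bases (508 transcripts) to 0.07 for gaps of 2500 bases and more (696 transcripts). In the latter class the upstream probe lay below the downstream probe on every late array, by a median of -0.04 (4 h) and -0.08 (6 h) with L. acidophilus, against -0.09 and -0.15 with B. clausii. At 1 h and 2 h the medians were -0.15 and -0.09 with L. acidophilus, against -0.19 and -0.11 with B. clausii. The lower ratio at upstream probes of long transcripts was thus present on all 8 arrays, larger in size with B. clausii at each hour and largest at 1 h with both. With the most downstream probe in place of the brightest, an alternative chosen after seeing the data, no gene passed, and the late differences of Smap1, Dicer1 and Sltm turned to -0.06, -0.06 and -0.18.

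**Figure D2:**
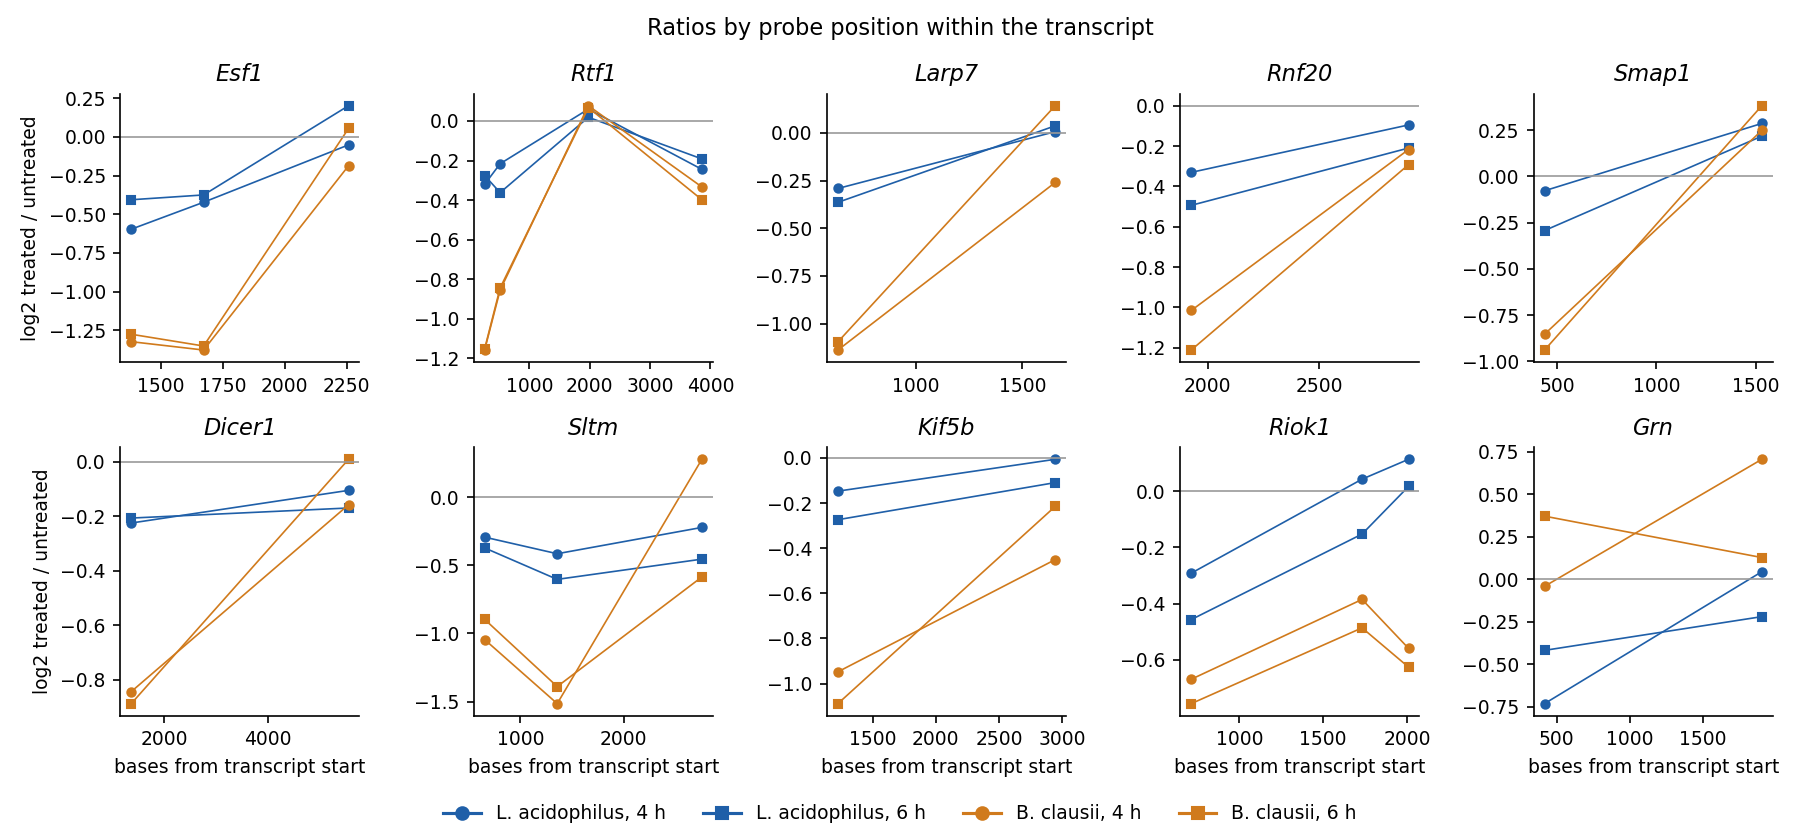
Log2 ratio of treated over untreated cells (vertical axes, scaled per gene) against the start of each probe in bases from the transcript start, for 10 leading genes with several probes, 1 line per late array. In Esf1, Rtf1, Larp7, Rnf20, Smap1 and Dicer1 the B. clausii lines lie well below the L. acidophilus lines at the upstream probes and meet or come near them at the most downstream probe.

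The chemokine genes Ccl2 and Ccl7, which draw monocytes, and Cxcl2, which draws neutrophils, had the largest late differences of the immune genes named. Ccl2 stood at 1.19 (4 h) and 1.26 (6 h) with L. acidophilus, against 0.49 and -0.11 with B. clausii. Its late difference was 1.04 ± 0.17 (2.06-fold), with an adjusted p of 0.0955 in limma, so it did not pass. Before that, at 1 h and 2 h, Ccl2 stood at 1.37 and 1.78 with L. acidophilus, against 1.48 and 1.42 with B. clausii, which is an early difference of 0.12. With L. acidophilus the ratio stayed high for all 6 h, and with B. clausii it was back at the untreated level by 6 h.

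Ccl7 stood at 0.84 and 1.24 against 0.31 and -0.12, with a difference of 0.94 ± 0.21 (adjusted p of 0.173). Its other probe gave 1.04. Cxcl2 stood at -0.06 and 0.69 against -0.79 and -0.39, a difference of 0.91 ± 0.22 (adjusted p of 0.177). In all 3 genes both L. acidophilus arrays lay above both B. clausii arrays. Naming genes by a large difference of 1 sign favours this, and the share over all genes was not computed. Ccl2, Ccl7 and Cxcl2 were 3 of the 11 measured chemokine genes, the share with an unadjusted p under 0.05 in this direction (27.3% against 7.71% of all genes), and 1 gene had it in the other. The list's median late difference was 0.04, against 0.01 over all genes, so the other chemokines did not share the size of these 3. All gene lists here were chosen with earlier results of these data known, so their shares beside all genes are descriptions only.

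The promoter of Cxcl2 (RefSeq, GRCm38.p6, chr5:90903649-90903898, plus strand, the 250 bases before the start) is printed because it alone among the 6 chemokine promoters found in the sequence table holds an NF-kB motif (GGGAN directly followed by TTTCC), searched on both strands from 250 bases before to 50 after the start. The motif occurs in 0.411% of the 32851 promoters of that table, and the capitals mark it.
Cxcl2: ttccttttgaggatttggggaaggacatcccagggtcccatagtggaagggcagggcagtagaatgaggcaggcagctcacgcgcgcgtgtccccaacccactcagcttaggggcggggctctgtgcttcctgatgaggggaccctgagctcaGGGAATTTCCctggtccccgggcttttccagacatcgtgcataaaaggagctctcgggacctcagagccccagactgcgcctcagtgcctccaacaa

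Some other immediate early and feedback genes lay on the same side at the late hours, but their list as a whole did not move far. Its median was 0.03, against 0.01 over all genes. At both hours 9 of 24 members were positive and 4 negative, against 32.5% and 30.3% of all genes. Klf4, a zinc-finger transcription factor, stood at -0.14 and -0.74 with L. acidophilus, against -0.84 and -1.15 with B. clausii, a difference of 0.56 ± 0.10 (adjusted p of 0.138). Egr2, another zinc-finger factor of the early response, stood at 0.17 and 0.94 against -0.07 and 0.22, a difference of 0.48. Socs3, the inhibitor of STAT3 signalling, stood at 0.42 and 0.64 against -0.07 and 0.25, a difference of 0.44 ± 0.09 (adjusted p of 0.150). A second Socs3 probe gave -0.20, so the probes disagreed. Of the 24 measured immediate early and AP-1 genes 5 (20.8% against 7.71% of all genes) had an unadjusted p under 0.05 with the higher ratio for L. acidophilus. With the higher ratio for B. clausii there were 2 (8.33% against 7.86%), and none passed. Acod1, which makes the antibacterial metabolite itaconate, stood at 0.21 and 0.56 against 0.06 and -0.04, a difference of 0.38 (adjusted p of 0.231). Tgfb1, which encodes a suppressive cytokine, lay on the other side at -0.06 and 0.01 against 0.32 and 0.54, a difference of -0.45 ± 0.09 (adjusted p of 0.150).

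Receptor and signalling lists had medians close to that of all genes. The Toll-like receptor and adaptor list had 2 of 21 genes (9.52%) at an unadjusted p under 0.05 in each direction and a median of -0.04. All genes had 7.71% on the L. acidophilus side and 7.86% on the other. Cd14, the co-receptor for lipopolysaccharide, stood at -0.05 and -0.67 with L. acidophilus, against 0.23 and -0.19 with B. clausii, a difference of -0.38 (adjusted p of 0.177). NF-kB subunits and inhibitors had 2 of 18 (11.1%) in the L. acidophilus direction, none in the other and a median of -0.03. The interferon-stimulated genes had 3 of 22 (13.6%), none and -0.02. No member of these 3 lists passed.

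**Figure D3:**
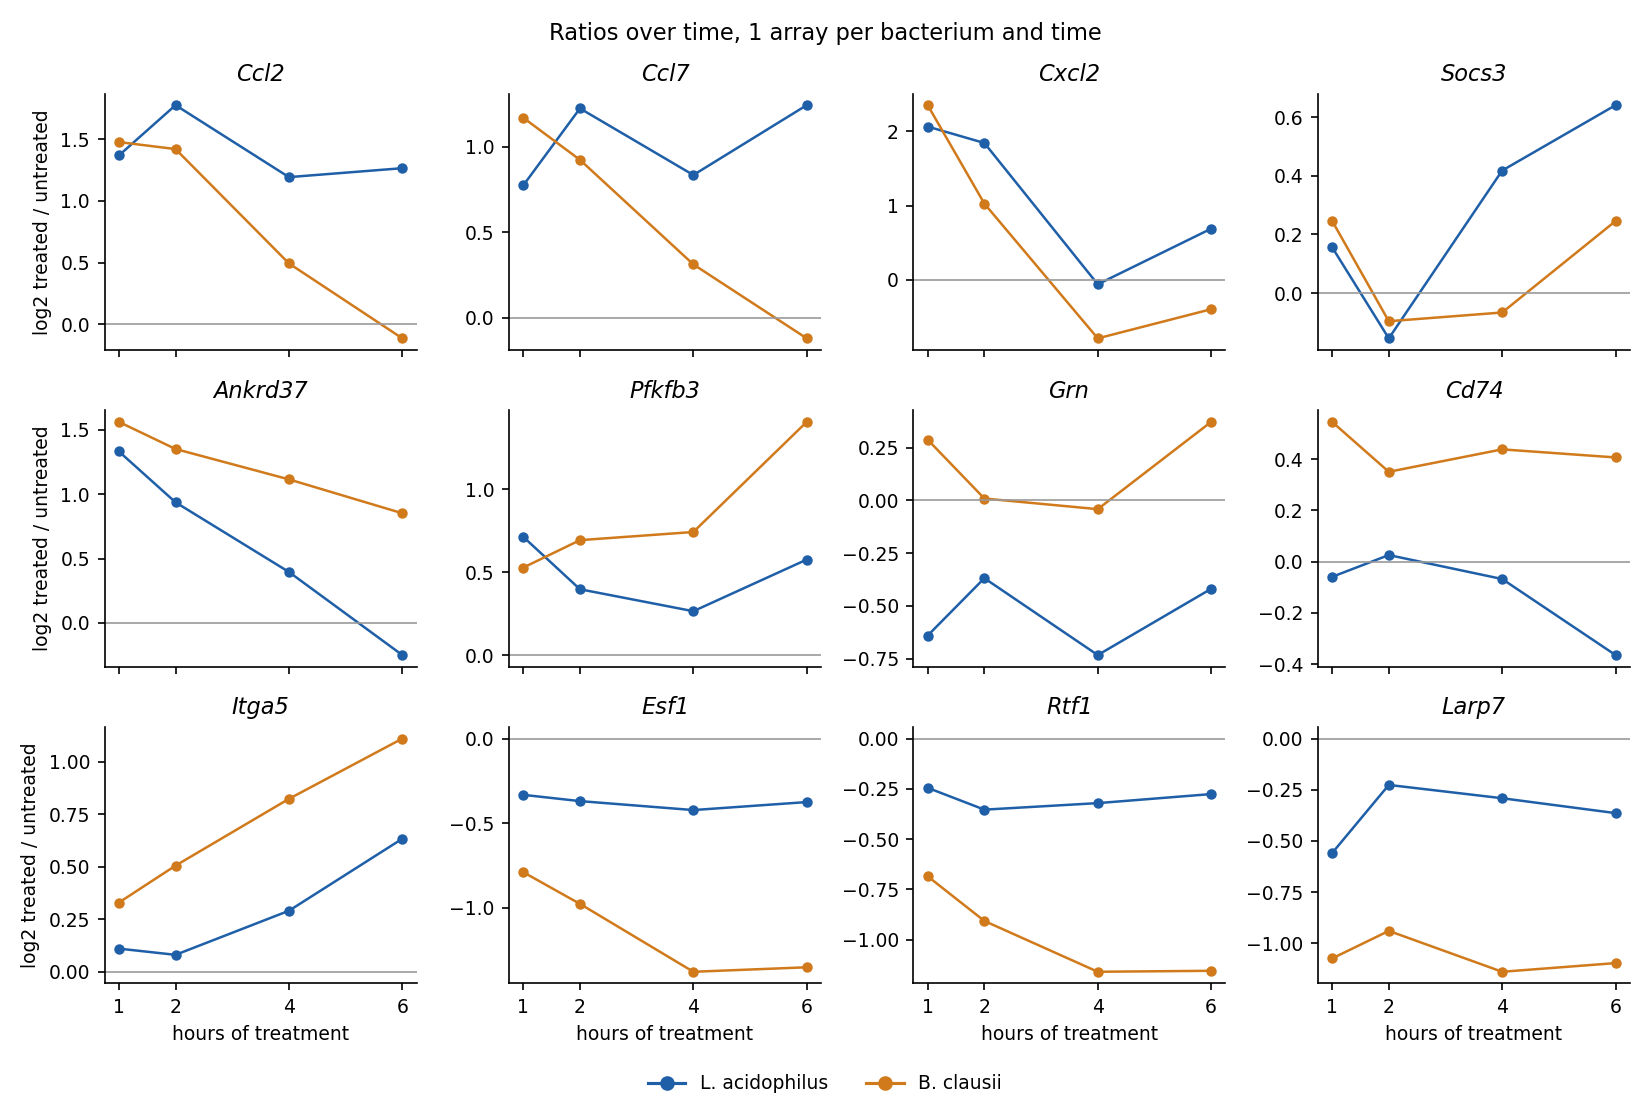
Log2 ratio of treated over untreated cells (vertical axes, scaled per gene) at 1, 2, 4 and 6 h for 12 genes, with 1 array per point. The Ccl7 lines cross between 1 and 2 h and, like the Ccl2 lines, are farthest apart at 6 h, while the Esf1, Rtf1, Larp7, Grn and Cd74 lines keep 1 order from 1 h on.

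In the direction of B. clausii no gene passed the test. The 15 leading genes had late differences from -1.03 (Cit) to -0.47 (Ncln), with adjusted p from 0.0584 (Ankrd37) to 0.138. Their early differences had the same sign in 14 of 15, with Pla2g15 the exception at 0.07. An unadjusted p under 0.05 in the early limma comparison was reached by 11 of 15, against 9.88% of all genes. Early and late differences lie on the same slides and correlated at r = 0.466 across all genes, so these counts are descriptions. Unlike the other direction, only Grn and Prpf8 had a probe pair 300 bases apart or more, and in both genes both probes gave the same sign. Among the leaders Cit, a kinase of cell division, rested on 1 of its 3 probes, since the other 2 gave 0.11 and 0.06.

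Rgs11, a regulator of G protein signalling, stood at 0.12 and 0.06 for L. acidophilus, against 0.79 and 0.67 for B. clausii, a difference of -0.64 ± 0.10 (adjusted p of 0.0879). Kcnn4, a calcium-activated potassium channel, stood at 0.13 and 0.11 against 0.64 and 0.73, with the same adjusted p of 0.0879. Ap2a1, a subunit of the adaptor that loads clathrin-coated pits, stood at -0.42 and -0.53 against 0.09 and 0.04, a difference of -0.54. In these 3 genes the hours agreed closely and the groups did not overlap, which their ranking by p favours. Prpf8, the core protein of the spliceosome, stood at 0.07 and 0.14 against 0.56 and 0.72. Pla2g15, a lysosomal phospholipase, stood at 0.09 and -0.20 against 0.54 and 0.38. Gnrh1, Prss46, Tmem176b, Ptprz1 and Ncln had differences from -0.67 (Gnrh1) to -0.47. Gnrh1 and Prss46 were dim, with mean log2 intensities of 6.97 and 6.86, and untreated Prss46 signal was above background on only 3 of the 4 late arrays. The probe named Ptprz1 was very bright (16.19), and the array files place it on chromosome 14. Whether it reports that gene was not tested.

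Ankrd37, an ankyrin repeat gene that hypoxia-inducible factor switches on, stood at 0.40 (4 h) and -0.25 (6 h) with L. acidophilus, against 1.11 and 0.85 with B. clausii. The difference was -0.91 ± 0.11 (adjusted p of 0.0584). At 1 h Ankrd37 stood at 1.33 and 1.56, so both bacteria began high. The ratio then came down with both, to the untreated level with L. acidophilus and to 0.85 at 6 h with B. clausii. Pfkfb3, whose product drives glycolysis, stood at 0.26 and 0.58 against 0.74 and 1.40, a difference of -0.65 ± 0.13 (adjusted p of 0.150), though its other probe gave -0.08. Gapdh, a glycolytic enzyme and common reference gene, stood at -0.12 and 0.00 against 0.17 and 0.69, and both of its probes were negative (-0.50 and -0.36). Of 29 measured hypoxia and glycolysis genes 9 had an unadjusted p under 0.05 with the higher ratio for B. clausii (31.0% against 7.86% of all genes) and 1 with the higher ratio for L. acidophilus. The list's median was -0.15 and 16 of 29 were negative at both hours.

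The Ankrd37 promoter (RefSeq, GRCm38.p6, chr8:45999851-46000100, minus strand, the 250 bases before the start) is printed for the hypoxia-response core ACGTG, in capitals, which it holds 2 times. On either strand that core occurs in 21 of 38 promoters found for the genes of this list, against 19.6% of all 32851 promoters.
Ankrd37: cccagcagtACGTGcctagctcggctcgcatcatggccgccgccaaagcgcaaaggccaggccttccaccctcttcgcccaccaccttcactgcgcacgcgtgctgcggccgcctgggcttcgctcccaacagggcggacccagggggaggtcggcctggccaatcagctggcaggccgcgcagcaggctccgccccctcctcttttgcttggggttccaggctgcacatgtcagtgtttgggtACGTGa

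Lysosomal genes were numerous on the B. clausii side, in a list chosen with earlier results of these data known. Of 32 measured hydrolase and granulin genes 24 were negative at both hours, against 30.3% of all genes, and 13 had an unadjusted p under 0.05 with the higher ratio for B. clausii (40.6% against 7.86%), with 1 in the other direction and none past the adjusted threshold. The list's median was -0.15 at 4 h and -0.21 at 6 h, and -0.14 at 1 and 2 h. Grn, the precursor of the granulins, stood at -0.73 and -0.42 with L. acidophilus, against -0.04 and 0.37 with B. clausii, a difference of -0.74 ± 0.13 (adjusted p of 0.126). Its second probe, further downstream, gave -0.50. Naglu, which removes N-acetylglucosamine from heparan sulfate, stood at 0.00 and -0.37 against 0.33 and 0.20, a difference of -0.45 ± 0.10 (adjusted p of 0.177 in limma). Most of the Naglu difference lay in the normalized untreated channel, a split that also rests on the brightness of the spot on each slide. Gaa, which breaks down glycogen in lysosomes, stood at 0.04 and -0.30 against 0.26 and 0.28, a difference of -0.40 ± 0.11 (adjusted p of 0.207). In all 3 genes the B. clausii arrays were the high ones, which the rule by which they were named favours. The V-ATPase, which acidifies the lysosome, did not share this, with a median of 0.05 over 15 subunit genes.

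The promoter of Naglu (RefSeq, GRCm38.p6, chr11:101069844-101070093, plus strand, the 250 bases before the start) stands for 11 of the 30 promoters found for the lysosomal list that hold the E-box CACGTG, the core of the motif bound by the lysosomal regulator TFEB. Of all promoters 7.15% hold it. The letters read the same on both strands and contain the hypoxia core ACGTG, so the motif counts overlap, and a match describes the letters only.
Naglu: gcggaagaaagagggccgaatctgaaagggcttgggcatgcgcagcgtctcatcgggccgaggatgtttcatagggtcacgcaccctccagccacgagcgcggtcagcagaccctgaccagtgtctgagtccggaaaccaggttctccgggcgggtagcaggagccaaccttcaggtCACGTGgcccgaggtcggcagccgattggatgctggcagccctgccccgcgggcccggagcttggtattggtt

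Antigen presentation and Fc receptor genes lay on the same side. Cd74, the invariant chain of MHC class II, stood at -0.07 and -0.36 with L. acidophilus, against 0.44 and 0.41 with B. clausii, a difference of -0.64 ± 0.11 (adjusted p of 0.116). H2-Eb1, a class II beta chain, stood at 0.24 and -0.21 against 0.51 and 0.34. Of its difference of -0.41 the larger part lay in the normalized untreated channel. Of 10 measured class II genes 5 had an unadjusted p under 0.05 with the higher ratio for B. clausii (against 7.86% of all genes), none in the other direction, and the median was -0.23. In this list the median probe GC content was 53.3%, against 43.3% over all genes. The late difference fell off with probe GC across genes (r = -0.205), from a median of 0.05 at 35 to 40% GC to -0.04 at 50 to 55%. With the trend on GC removed, an alternative chosen after seeing the data, the class II median was -0.21.

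Of 8 Fc receptor genes 7 were negative at both hours (against 30.3% of all genes) and 3 had an unadjusted p under 0.05 with the higher ratio for B. clausii (37.5% against 7.86%). For Fcgr3, 1 of these 3, most of the difference of -0.43 lay in the normalized untreated channel. Fcgr4, a receptor for immunoglobulin G, stood at 0.31 and -0.13 against 0.67 and 0.43, a difference of -0.47 ± 0.09 (adjusted p of 0.150). Fcer1g, the signalling chain these receptors share, stood at 0.33 and 0.21 against 0.57 and 0.68, a difference of -0.35. Among 18 integrin and adhesion genes 12 were negative at both hours (against 30.3%) and 6 had an unadjusted p under 0.05 in the same direction (33.3% against 7.86%), with a median of -0.15. Itga5, the fibronectin receptor alpha chain, stood at 0.29 and 0.63 against 0.82 and 1.11, a difference of -0.50 ± 0.09 (adjusted p of 0.138), and Itgb2, the beta chain of the leukocyte integrins, at 0.32 and -0.03 against 0.67 and 0.54, a difference of -0.46. For Itga5 the ratio stood higher at 6 h than at 1 h on both slides and higher with B. clausii at each hour.

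Stress and lipid lists had negative medians, with counts at an unadjusted p under 0.05 to be read against 7.86% of all genes higher with B. clausii and 7.71% higher with L. acidophilus. The median was -0.16 for 24 chaperone genes of the endoplasmic reticulum, with 5 at an unadjusted p under 0.05 in this direction and 1 in the other, and the 29 ATF4 and stress response genes had -0.11, with 5 and 2. Targets of the sterol sensor LXR and lipid genes had -0.12 (6 of 18 and none) and cholesterol genes -0.10 (6 of 24 and 2). Scd2, a fatty acid desaturase, stood at 0.17 and -0.42 with L. acidophilus, against 0.40 and 0.32 with B. clausii, and Srebf1, the regulator of fatty acid synthesis, at 0.15 and -0.22 against 0.43 and 0.35. Neither passed (adjusted p of 0.196 and 0.181).

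On the L. acidophilus side the gene lists had smaller medians than their leading members. The SR, cyclophilin and SAFB-family list held Sltm, Ppig and Ccar1, and like the other lists was chosen with earlier results of these data known. Ppig, a nuclear cyclophilin, stood at -0.33 and -0.38 against -1.36 and -1.01, and Ccar1, a coactivator, at -0.51 and -0.90 against -1.56 and -1.42. Their differences of 0.83 and 0.79 had adjusted p of 0.0789 and 0.0955. The list as a whole had a median of 0.04. At an unadjusted p under 0.05 in limma it had 6 of 30 genes (20.0%) in this direction and 2 (6.67%) in the other. All genes had 7.71% and 7.86%, against which the counts below are also to be read. Chromatin remodelling genes gave 7 of 29 (24.1%) and none with the same median. Transcription elongation gave 4 of 27 (14.8%) and none, and ribosome biogenesis 4 of 43 (9.30%) and 1, the latter near the share of all genes. Each of these lists held 1 called gene (Rtf1 and Esf1), and their medians of 0.02 and 0.05 lay close to that of all genes. Proteasome subunits had the highest median, 0.10, with 4 of 29 (13.8%) and 2 (6.90%). Cytosolic ribosomal proteins had 0.07, with 2 of 50 (4.00%) in each direction, below the share of all genes.

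The remaining lists held members of both directions. The actin list had 1 of 32 genes (3.1%) at an unadjusted p under 0.05 on the L. acidophilus side and 3 (9.4%) on the other. All genes had 7.71% and 7.86%. Actr3, a subunit of the Arp2/3 complex that branches actin, stood at 0.15 and -0.08 against -0.15 and -0.58, and Actg1, cytoplasmic gamma actin, at 0.04 and 0.07 against 0.37 and 0.71. Neither gene passed (adjusted p of 0.177 and 0.176). Golga4, a golgin that tethers vesicles, stood at 0.61 and 0.44 against 0.07 and 0.02, though the mean over its 3 probes gave 0.14 in place of 0.48.

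Counts at an unadjusted p under 0.05 are read against 7.71% of all genes on the L. acidophilus side and 7.86% on the other. Oxidative phosphorylation genes had 8 of 42 (19.0%) and 2 (4.76%), with a median of 0.04. Its most distant members rested on 1 array: Atp5c1, a subunit of ATP synthase, stood at -0.74 on the 6 h B. clausii array and at 0.30 at 4 h, and Ndufs1, a subunit of complex I, at 0.97 and -0.13. Cell cycle genes had 5 of 33 and 2, antioxidant genes 4 of 23 and 1, heat-shock chaperones 2 of 22 (9.09%) and none, and autophagy genes 2 of 21 (9.52%) and none, the last 2 lists near the share of all genes. Cdk4, a kinase of the G1 phase, lay on the B. clausii side at -0.23 and -0.01 against 0.20 and 0.45. MHC class I genes had none of 19 on the L. acidophilus side and 5 on the other, among them H2-D1, a class I heavy chain, at 0.10 and -0.25 against 0.31 and 0.36. The H2-D1 difference lay mostly in the normalized untreated channel, and probes of class I genes can bind transcripts of near-identical copies. None of the genes in this paragraph passed an adjusted p of 0.05 in limma.

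**Figure D4:**
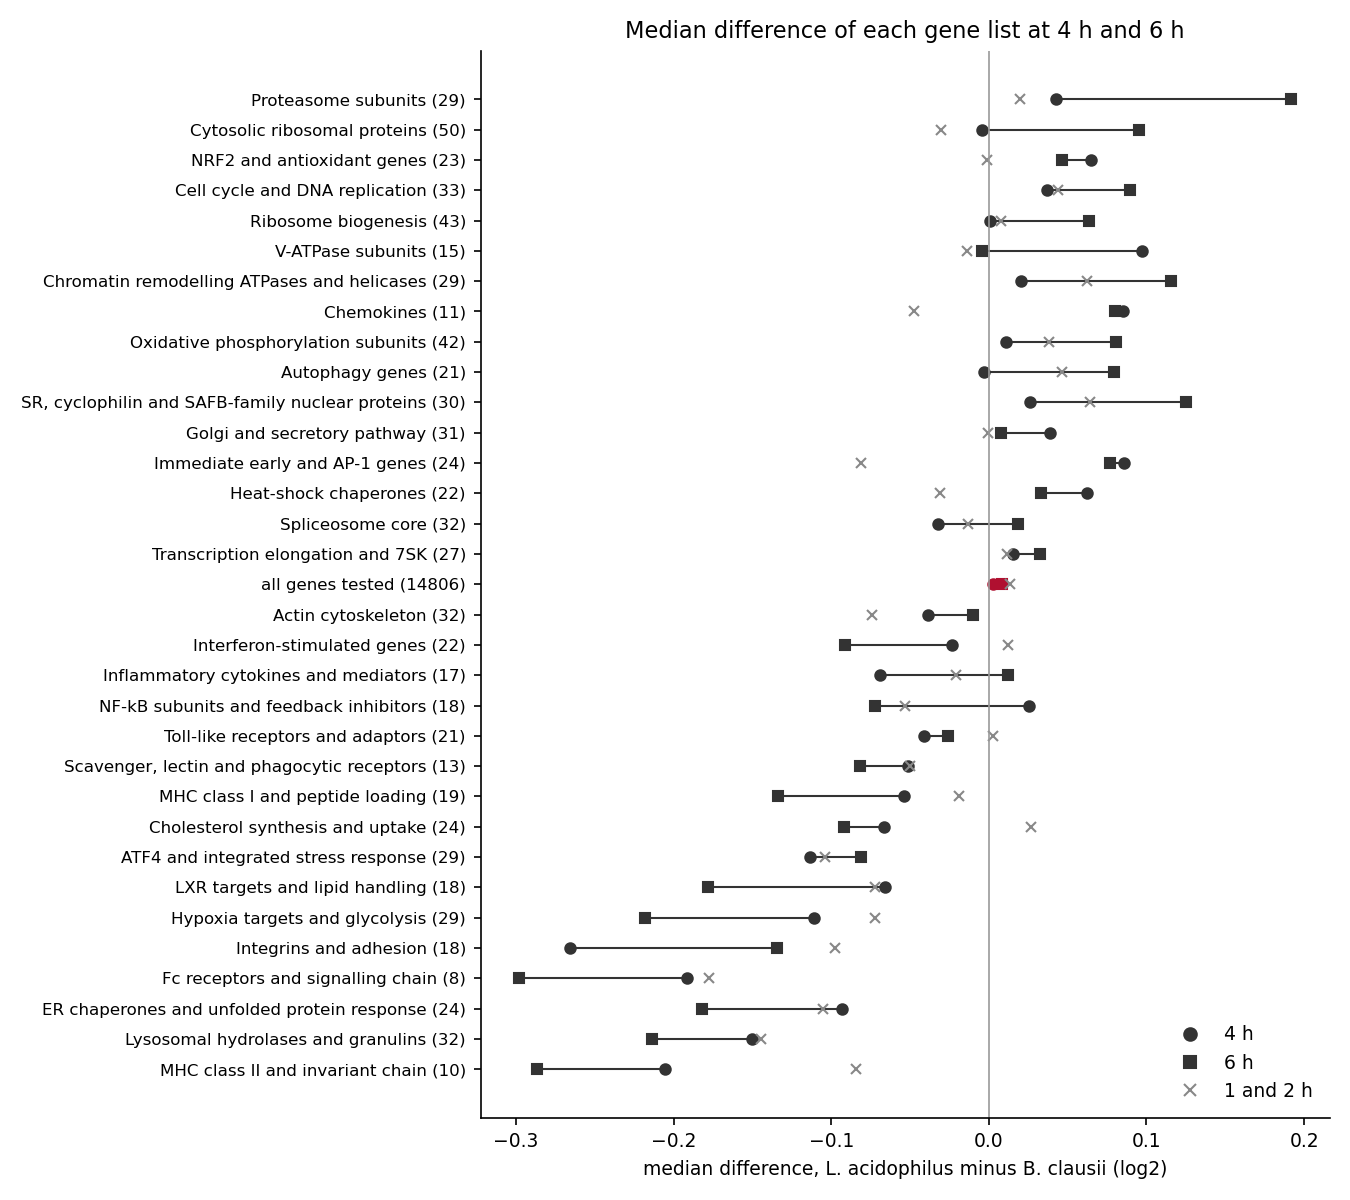
Median difference between the bacteria in log2, L. acidophilus minus B. clausii (horizontal axis), for the gene lists and for all genes tested, with circles for 4 h, squares for 6 h, crosses for 1 and 2 h and the number of measured genes in brackets. The 5 lowest lists lie between -0.30 and -0.09 at both late hours, while the medians over all genes lie between 0.00 and 0.01.

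Whether the gap between the bacteria at the late hours was another than at 1 and 2 h was tested by the change of the difference. No gene passed an adjusted p of 0.05 in limma, and 517 (3.49%) had an unadjusted p under 0.05. Named here are, among genes with signal on all 4 late arrays and 1 sign of the difference at 4 h and 6 h, the 5 lowest p-values in each direction, none of which passed. The change was 0.94 for Klf2, 0.92 for Ccl2, 0.54 for Mis12, 0.53 for Rcan1 and 0.51 for Socs3, and at the other end -0.62 for Rac3, -0.59 for Ankrd37 and Pla2g15, -0.56 for Itga4 and -0.44 for Soga1. Klf2, a quiescence factor, stood at -0.48 and 0.69 with L. acidophilus, against -1.03 and 0.21 with B. clausii, but its other probe gave a late difference of -0.11. Rcan1, an inhibitor of calcineurin, stood at 0.76 and 1.33 against 0.32 and 0.61, and its early ratios were near equal (an early difference of 0.05). Leaving out either 2 h array gave 7 genes past the threshold, leaving out either 4 h array 42, and leaving out either 6 h array 1.

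No gene differed by 2-fold or more at both hours. At 4 h 11 genes (0.0743%) were at least 2-fold higher with L. acidophilus and 4 (0.027%) with B. clausii. At 6 h the counts were 34 (0.23%) and 36 (0.243%), each from 1 pair of arrays with no replicate. At 3-fold 1 gene (0.00675%, higher with L. acidophilus) was left at 4 h, and 2 (0.0135%) and 3 (0.0203%) at 6 h. With the processed signals the totals were 492 and 901 in place of 15 and 70, and 76 genes passed at both hours. Ccl2, Ccl7, Cxcl2 and Ankrd37 were among the genes past 2-fold at 6 h and had differences of 0.70, 0.52, 0.73 and -0.72 at 4 h. The genes named for their size at a single hour differed less at the other. Brd8, a bromodomain protein, stood at -2.07 on the 4 h B. clausii array and between -0.18 and 0.12 on the other 7, and its other probe gave -0.28 at 4 h in place of 2.19. Slc3a2, the heavy chain of an amino acid transporter, stood at 1.64 on the 6 h B. clausii array and at 0.19 on the 4 h one, with -0.03 at 6 h from its other probe in place of -1.76. Ubtf, a ribosomal DNA transcription factor, and H1f0, a linker histone, stood at 1.19 and 1.56 on that array, against -0.19 and 0.22 at 4 h. The other Ubtf probe gave a 6 h difference of 0.15 in place of -1.62. The other H1f0 probes gave -0.54 and -0.06 in place of -1.60. On the side of L. acidophilus at 6 h Cdca5 stood at 1.06 and -0.75, Mios at 0.76 and -1.06 and Skil at 1.56 and -0.02 with L. acidophilus and B. clausii, and the other probe of each gave -0.08, 0.10 and -0.01 as the 6 h difference. Of the genes named for 4 h, H4c6 (-1.33), Disp3 (-1.03) and Them4 (1.21) were past 2-fold and Macroh2a1 (-0.90) was not. Their differences at 6 h ran from -0.16 to 0.39.

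**Figure D5:**
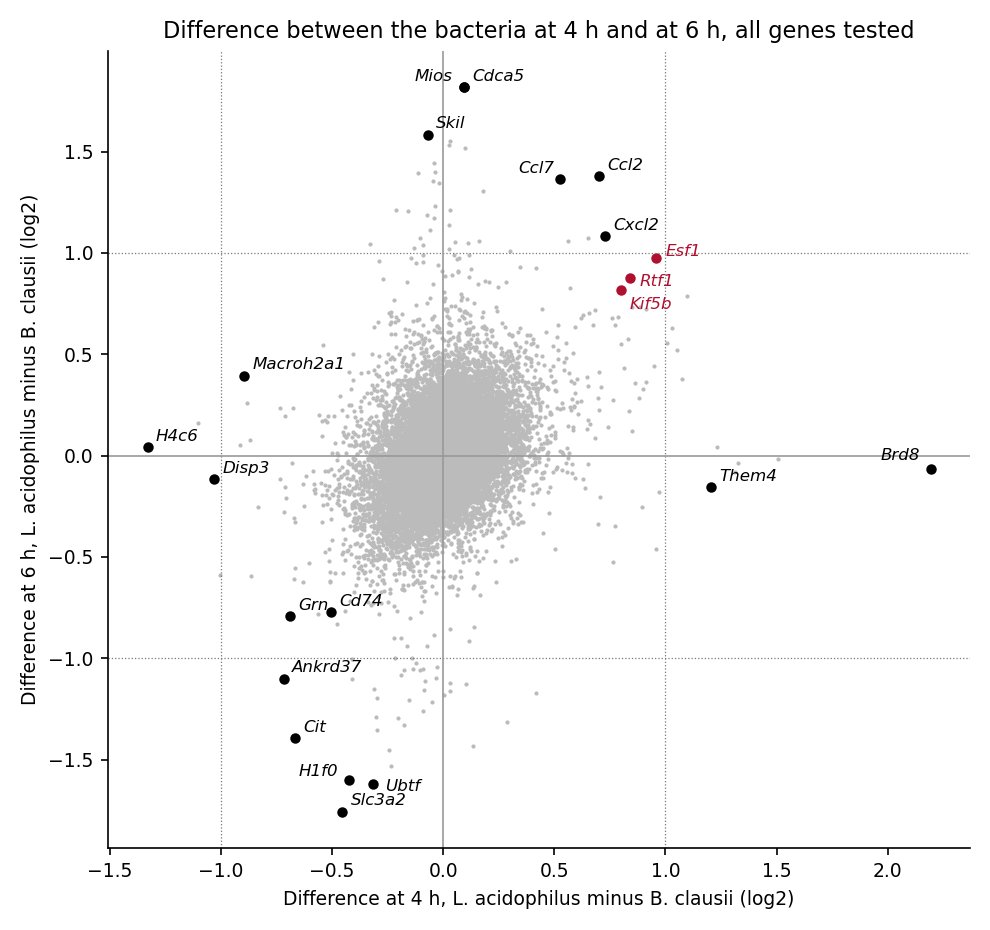
Difference between the bacteria at 4 h (horizontal axis) and at 6 h (vertical axis), L. acidophilus minus B. clausii in log2, with 1 point per gene, dotted lines at 2-fold and the 3 called genes in red. The called genes lie near the diagonal just inside the 2-fold lines, Ccl2, Ccl7 and Cxcl2 above them, and Brd8, Mios and Slc3a2 far out along 1 axis.

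Each channel of an array can also be set against the same channel of the other slide. Over genes the untreated channel differed between the slides with an SD of 0.21 at 4 h and 0.35 at 6 h, and the treated channel with 0.222 and 0.423. Across genes the treated and untreated channel differences correlated at r = 0.667 at 4 h and 0.823 at 6 h. These SDs thus hold a part common to both dyes of an array and do not measure how much the control cells varied. Whether both bacteria shared the untreated RNA of an hour was not stated in the labels used here. For the 15 leading genes higher with L. acidophilus the treated channel differed by a median of 0.58 and the untreated channel by -0.18, and for the 15 higher with B. clausii by -0.50 and 0.16. In all 30 genes the treated channel had the sign of the ratio difference at both hours. The treated channel is part of the ratio on which these genes were chosen, so the choice favours this count. The share over all genes was not computed. Ccl2 differed by 0.91 in the treated and -0.13 in the untreated channel, Ankrd37 by -0.71 and 0.20, and Cd74 by -0.57 and 0.07. In Naglu, H2-D1 and H2-Eb1 the untreated channel differed more than the treated one, by 0.40, 0.35 and 0.23 against -0.05, -0.06 and -0.18. Other genes did the same, among them Fcgr3, by 0.39 against -0.04, and Brd8 at 4 h, by -2.7 against -0.50. Such a split moves with the brightness of a spot on each slide, so it does not place a difference in the control cells. For Tpr the treated and untreated channels differed by 1.21 and 0.42 at 4 h and by 0.35 and -0.34 at 6 h. The Tpr ratio difference was 0.79 and 0.69 at these hours. Fitted on the treated channel alone, no gene passed an adjusted p of 0.05 in limma.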

How the data were processed

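RNA of treated (Cy5) and untreated (Cy3) RAW 264.7 cells was measured on 8 Agilent arrays. The deposited spot intensity values are, per the file headers, foreground means and local background medians from Feature Extraction 10.7.3.1 (10.5.1.1 in the submitters' processing notes), with 0 or 1 flags. The deposited log10 ratios are red over green processed signal, per the file headers, and the series matrix holds them rounded.

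Ratios were computed anew on the log2 scale with limma 3.58.1 in R 4.3.3: normexp (offset 50), loess within arrays, flagged spots left out, replicate spots averaged. The offset draws ratios of dim probes toward 0. Local backgrounds above 3 times the array's median that the software had marked were set to that median. No spot was saturated. A probe had to exceed background in 1 channel or the other on 2 or more arrays, and the brightest stood for its gene. Of 41174 probes 27660 were named by RefSeq accession, 93 by another accession, 5996 by symbol, 7425 as in the file. The fit (lmFit, eBayes) had the hour as a block and 2 residual degrees of freedom (prior 6.33, prior SD 0.0969). Arrays are paired by the hour in the labels. The members, lists and rules were chosen with earlier results of these data known.

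Named were the 15 leading genes per direction by size if called and otherwise by p, with 1 sign at both hours and signal on all 4 late arrays; up to 3 per list; 5 per direction for the change of the difference; and 3 per direction and hour. The fit was tested on simulated data. Alternatives were the processed signals, series matrix values, other background and normalization settings, filters, probe choices, pairing, priors, thresholds, the treated channel alone and leaving out each array. Motifs were searched in a RefSeq promoter table. A few genes and lists are not reported here.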

Additional observations from a re-analysis of the deposited data

Results flagged for a closer look

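The late difference between the bacteria passed the limma test for 3 genes, all higher with L. acidophilus at both hours: Esf1 (0.97), Rtf1 (0.86) and Kif5b (0.81). Groups of 2 arrays are too small for a search for outlying arrays.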

How the results depend on the processing

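The number of genes called late was 3. It was 0 with the processed signals, the series matrix values, normexp offset 0, no background correction, the local background as deposited, scaling between arrays, no filter on dim probes, the mean over probes, a trended robust prior and the treated channel alone, and also with the probe nearest the 3′ end. It was 241 with median centring, 19 with both channels above background on all arrays, 11 with the 4 late arrays alone, 34 at an adjusted p of 0.1 and 1 without the replicate block that pairs the hours. Removing the GC trend gave 2. Both probe-related settings were chosen after seeing the data. Leaving out each array gave 4 to 104. For the change of the difference the count stayed at 0 in every setting except leaving out an array, which gave 0 to 42. Genes past 2-fold numbered 15 (4 h), 70 (6 h) and 0 (both hours). At 3-fold these were 1, 5 and 0, and with the processed signals 492, 901 and 76. Changing the threshold, prior or pairing, using the 4 late arrays alone or leaving out an early array cannot move a late difference. Leaving out either array of a late hour gives the same late difference. Of 100 genes named here 85 kept their direction in every setting run. Those that turned were Smap1 (-0.063), Dicer1 (-0.063), Sltm (-0.18), Cit (0.11), Brd8 (-0.19), Smarca4 (-0.18) and Cebpb (-0.0069) at the probe nearest the 3′ end, Itga4 with the processed signals (0.0044) and series matrix (0.0033), Soga1 with median centring (0.044), Rac3 (0.11), Brd8 (-0.34) and Disp3 (0.44) in the treated channel alone, and Macroh2a1 over all its probes (0.056). Leaving out each array gave Brd8 from -0.065 to 2.19, Them4 from -0.16 to 1.21, H4c6 from -1.33 to 0.042, Macroh2a1 from -0.90 to 0.39 and Skil from -0.070 to 1.58, with 1 end of each range at 4 h alone and the other at 6 h alone. The cause was not tested. The medians of the class II, Fc receptor, lysosomal, integrin, hypoxia and LXR lists stayed below 0 in all 25 settings. These include the settings that cannot move a late difference, so the count overstates how many separate checks were made. With 1 slide a bacterium and no exchanged dyes, effects of slide and gene-specific dye effects that differ between slides cannot be told apart from the bacterium.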
